A study of Homo sapiens with 60 samples.

Results

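The genes described are 38 ribosome biogenesis and nucleolar factors, chosen by name and followed in SW1783, an established human astrocytoma cell line, across 20 groups treated for 24 h. All 38 symbols were found among the 60675 genes of the deposited table, and all 38 were among the 17569 genes with enough counts to be tested. By role they comprised 1 regulator of ribosome production (MYC), 6 genes of RNA polymerase I transcription, 5 nucleolar scaffold and chaperone genes, 7 core proteins of small nucleolar ribonucleoproteins (snoRNPs), 9 genes of small-subunit assembly and 10 genes of large-subunit assembly. Cells received water extracts of 6 medicinal plants, the kinase inhibitor wortmannin, or dimethyl sulfoxide (DMSO) as vehicle, with 3 libraries in each group. The extracts were fresh ginger (Zingiberis Rhizoma Recens), dried ginger (Zingiberis Rhizoma), Pinellia (Pinelliae Tuber), jujube (Zizyphi Fructus), Scutellaria (Scutellariae Radix) and Coptis (Coptidis Rhizoma). Low, medium and high doses were 20, 100 and 500 µg/mL for jujube, Pinellia and the 2 gingers. They were 16.4, 82 and 410 µg/mL for Scutellaria, and 0.8, 4 and 20 µg/mL for Coptis, whose top doses were set, per the labels, at a growth inhibition of 20%. Wortmannin, which blocks phosphoinositide 3-kinase, was used at 10 µM.

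Ribosomes are assembled in the nucleolus, where RNA polymerase I transcribes ribosomal DNA into a long precursor. snoRNPs guide the chemical modification and early cleavage of that precursor, and 2 separate sets of assembly factors build the small and the large subunit around it. MYC is a transcription factor known for raising many of these genes in growing cells, and growth signalling through phosphoinositide 3-kinase and mTOR is known to raise ribosome production.

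Library totals lay between 20.2 and 32.8 M expected counts, with a median of 25.4 M. Levels are given as CPM, the counts of a gene per M counts of its library, with the library totals scaled by TMM factors (trimmed mean of M-values), which ran from 0.80, in a library of high-dose Coptis, to 1.04. Among the defining markers of astrocytic cells, GFAP, S100B, AQP4 and ALDH1L1 were at most 0.218 CPM in every group mean, whereas VIM, CD44, CHI3L1 and SOX9 were abundant. The summed astrocytoma list ranged from 7655 CPM under high-dose Scutellaria to 12994 CPM under high-dose Coptis, the immune list from 6.58 to 15.6 CPM, nearly all of it PTPRC, and the epithelial list from 82.0 to 261 CPM, with EPCAM and CDH1 near 0. Whether the 3 libraries of a group came from separate cultures is not stated, so the p-values measure the spread between libraries, which may be technical. The vehicle is labelled 0.1% DMSO on the samples and 2% in the design text. The sample description codes place the pair of gingers, Pinellia with Scutellaria, and Coptis with jujube in separate sets, apart from the vehicle and wortmannin. The codes of the vehicle and of wortmannin differ in form, and whether they share a set is not stated. In every comparison of an extract with the vehicle the code set and the treatment therefore cannot be told apart, and this may hold for wortmannin too. The high and low dose of an extract have the same code set.

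Per kilobase of annotated exon, NPM1, a chaperone of nucleolar assembly, had the highest vehicle level of the members, 297 ± 6.16 CPM per kb (SD, n = 3). NHP2 followed with 63.0 ± 1.84 CPM per kb and NCL, nucleolin, with 62.3 ± 0.19 CPM per kb. The levels of NHP2 and NCL did not differ beyond their spread. WDR12 at 3.83 ± 0.01 CPM per kb and POLR1B at 4.28 ± 0.20 CPM per kb were the lowest. NPM1 and RRN3 have near-identical pseudogene copies and PPAN overlaps a readthrough transcript, so their counts are uncertain where reads could be split.

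With TMM scaling, the summed level of the 38 members was highest under high-dose Coptis and lowest under wortmannin. It was 4423 ± 32.2 CPM in the vehicle, 6039 ± 157 CPM under high-dose Coptis and 3606 ± 29 CPM under wortmannin (SD, n = 3 each). Neither treated group overlapped the vehicle, whose libraries lay between 4394 and 4458 CPM. The high dose gave 4028 ± 6.4 CPM for fresh ginger, 4080 ± 93.7 CPM for dried ginger and 4157 ± 43.0 CPM for jujube, all below the vehicle libraries. Pinellia at its high dose gave 4695 ± 79.2 CPM, above them, and Scutellaria 4406 ± 39.8 CPM, overlapping them. The size of the Coptis difference depended on the scaling. As a percent of unscaled library totals, the members made up 0.485 to 0.497 under high-dose Coptis, 0.447 to 0.451 in the vehicle, 0.467 to 0.478 under high-dose Pinellia, 0.410 to 0.413 under high-dose fresh ginger and 0.367 to 0.372 under wortmannin. On that scale high-dose Coptis still lay above the vehicle, by a smaller margin, and wortmannin below it. Medium-dose Coptis changed sides with the scaling. It gave 4524 ± 39.9 CPM with TMM scaling, above the vehicle libraries, but 0.414 to 0.419 percent of unscaled totals, below them. With TMM scaling, NPM1 alone made up 1137 CPM of the vehicle sum and 1851 CPM of the high-dose Coptis sum. Abundant members, among them NPM1 with its uncertain counts, thus weigh most in these sums on either scale. In bulk RNA of this kind, fewer cells and less RNA per cell cannot be told apart.

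**Figure D1:**
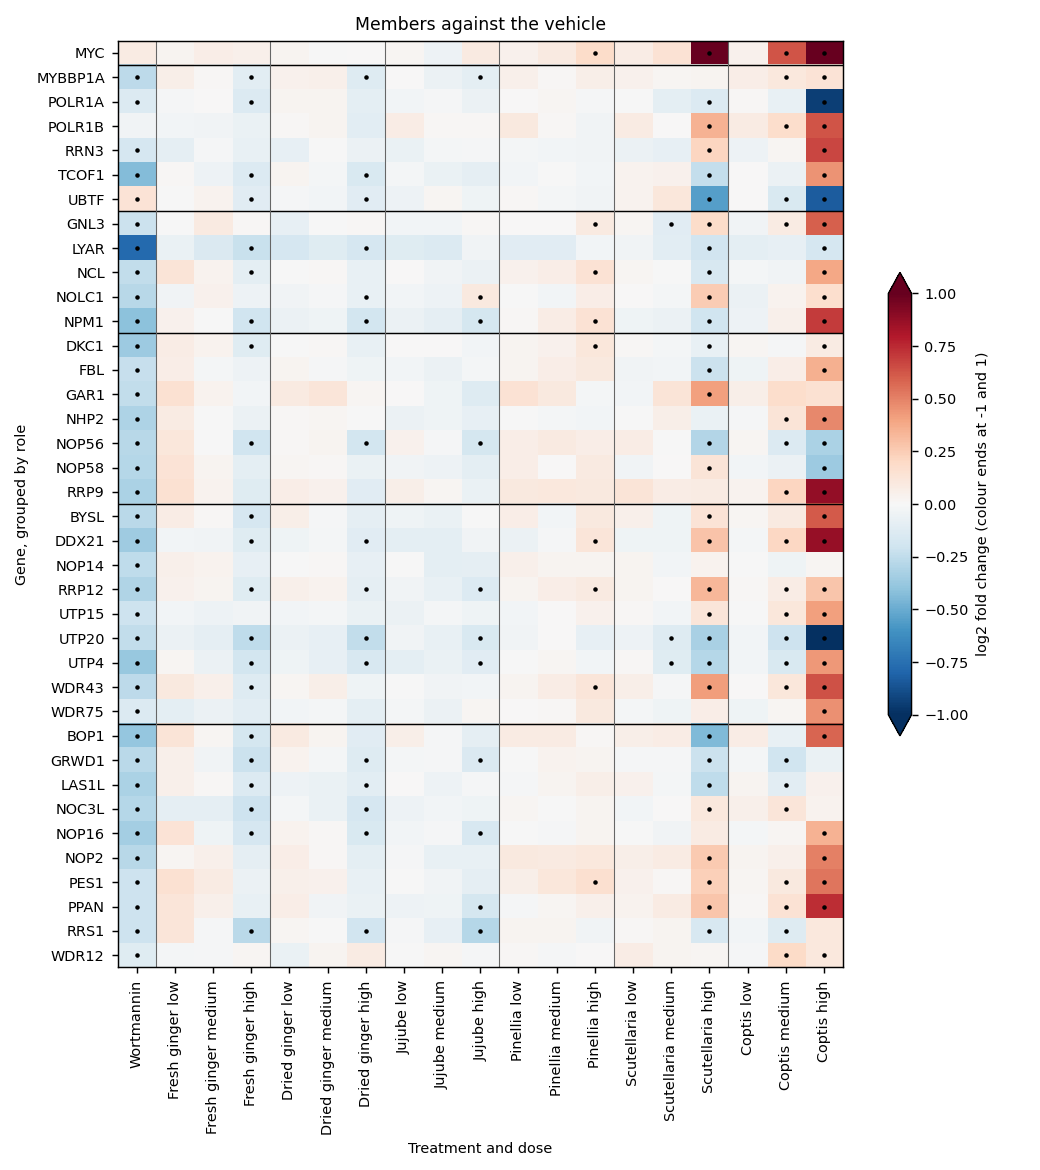
Log2 fold change against the vehicle for 38 genes (rows, grouped by role) in 19 treated groups (columns), with a dot where a change passed an adjusted p of 0.05 for wortmannin, the high doses and the medium doses of Coptis and Scutellaria; the other columns carry no dots. The wortmannin column is blue in nearly every row, the column of high-dose Coptis is mostly red with dark blue at UTP20, POLR1A and UBTF, and the low-dose columns are pale.

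MYC, the regulator in the set, rose under the high doses of both Coptis and Scutellaria and did not pass the test under wortmannin. The vehicle libraries held 41.9, 41.6 and 44.5 CPM of MYC. High-dose Coptis held 194, 186 and 176 CPM, and high-dose Scutellaria 172, 189 and 167 CPM. Both treated groups lay far above the vehicle and overlapped each other. The log2 fold change against the vehicle was 2.12 ± 0.05 (SE; adjusted p = 2.8e-39, edgeR's quasi-likelihood test) for Coptis and 2.05 ± 0.05 (adjusted p = 4.5e-38) for Scutellaria. Medium-dose Coptis held 68.3, 65.5 and 64.1 CPM, also above every vehicle library, with a log2 fold change of 0.63 ± 0.05 (adjusted p = 1.2e-14). Low-dose Coptis, at 47.0, 41.5 and 43.7 CPM, overlapped the vehicle. Medium-dose Scutellaria, at 47.6, 46.0 and 47.8 CPM, lay above the vehicle libraries without passing the test (0.15 ± 0.06, adjusted p = 0.093). Wortmannin gave 45.9, 44.6 and 44.7 CPM, a log2 fold change of 0.08 ± 0.06 (adjusted p = 0.27).

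**Figure D2:**
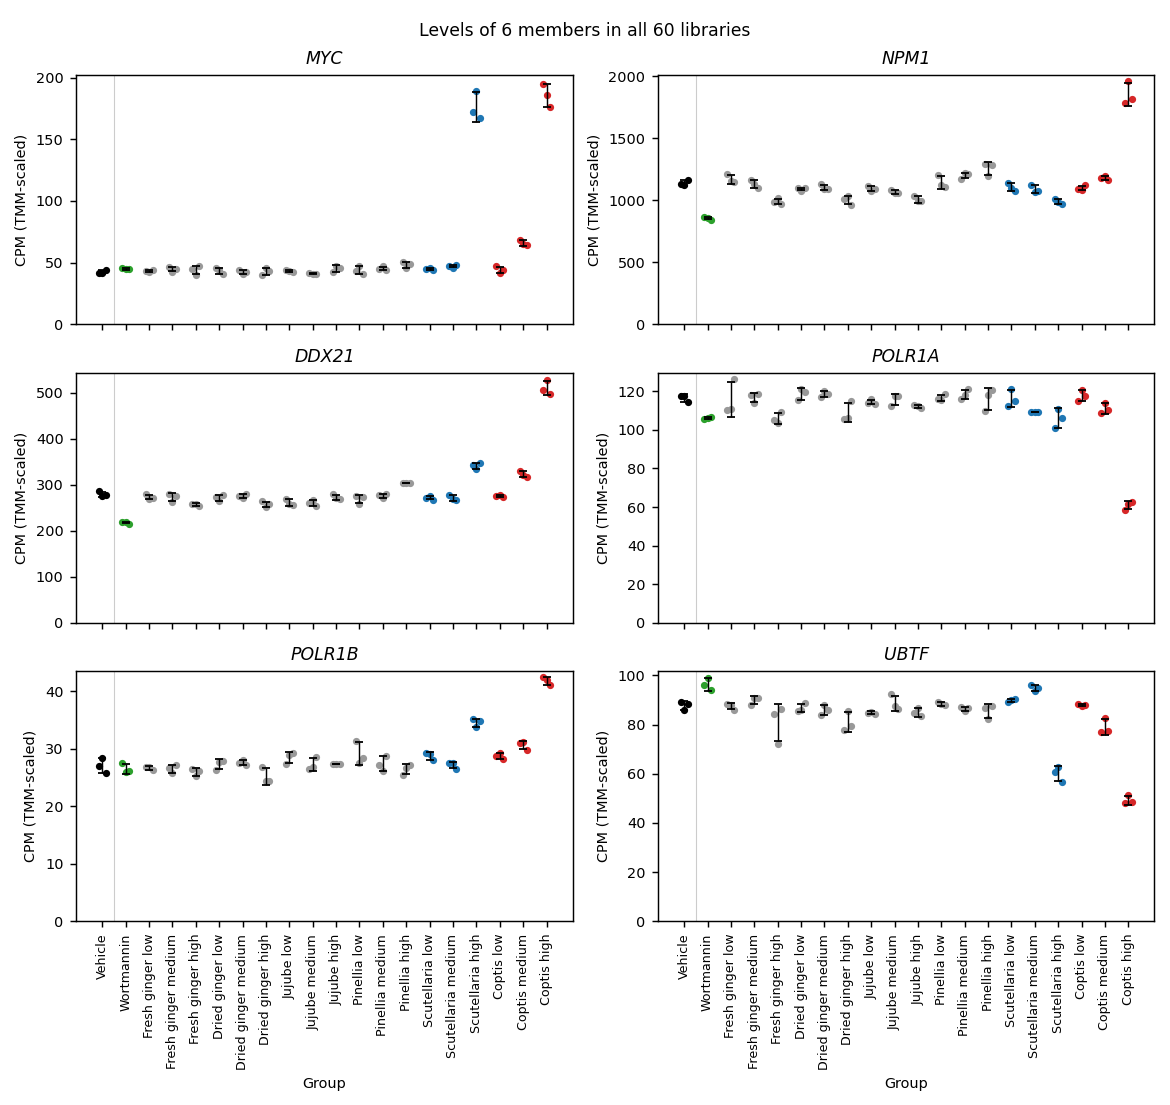
TMM-scaled CPM of MYC, NPM1, DDX21, POLR1A, POLR1B and UBTF in each of the 60 libraries (points; bars are mean ± SD, n = 3 per group). MYC stood near 42 to 48 CPM in most groups and between 167 and 194 CPM under the high doses of Scutellaria (blue) and Coptis (red), and POLR1A and POLR1B moved in opposite directions under high-dose Coptis.

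MYC binds DNA at the hexamer CACGTG, whose reverse complement is the same, so 1 search covers both strands. RefSeq promoter windows (GRCh38.p14, 250 bases before to 50 after a start) were given for 31 of the 38 members. They comprised 40 windows, because 9 genes had 2. The hexamer was present in 15 of these 40 windows, 37.5%, belonging to 15 genes, and in 2548 of all 35116 promoter windows of the same length, 7.26%. DDX21, GNL3, GAR1 and LYAR were counted as holding the hexamer although only 1 of their 2 windows did. The windows of all promoters were not matched to those of the members for expression or base composition, and the difference in share was not tested. A match describes the letters of a window and shows no binding. Shown are the windows of the 4 members with the smallest p between high and low dose of Coptis among those that hold the hexamer (capitals), of which 3 rose and UTP20 fell. Each line runs 5′ to 3′ from 150 bases before to 30 bases after the RefSeq start. DDX21, an RNA helicase, lies at chr10:68956497-68956676 (plus strand), RRP9, a snoRNP protein, at chr3:51941875-51942054 (minus strand), GNL3, nucleostemin, at chr3:52685882-52686061 (plus strand), and UTP20, a small-subunit assembly factor, at chr12:101279955-101280134 (plus strand).
DDX21: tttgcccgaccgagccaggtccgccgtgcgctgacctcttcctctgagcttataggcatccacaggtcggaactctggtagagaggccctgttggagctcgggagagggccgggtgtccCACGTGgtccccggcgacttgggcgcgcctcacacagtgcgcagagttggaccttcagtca
RRP9: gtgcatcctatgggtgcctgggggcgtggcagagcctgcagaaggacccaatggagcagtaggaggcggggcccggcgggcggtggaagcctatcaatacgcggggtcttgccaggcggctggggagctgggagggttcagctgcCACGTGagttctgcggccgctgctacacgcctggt
GNL3: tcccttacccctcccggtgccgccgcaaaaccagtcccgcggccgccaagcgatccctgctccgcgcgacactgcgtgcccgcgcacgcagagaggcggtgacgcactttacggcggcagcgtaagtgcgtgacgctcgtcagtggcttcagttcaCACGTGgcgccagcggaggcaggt
UTP20: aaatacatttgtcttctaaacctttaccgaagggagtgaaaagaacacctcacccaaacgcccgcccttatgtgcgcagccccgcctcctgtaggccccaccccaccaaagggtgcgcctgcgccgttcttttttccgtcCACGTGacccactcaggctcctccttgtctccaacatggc
Counted from the start, the first base of the hexamer lay at position -31 in DDX21, -5 in RRP9, 7 in GNL3 and -10 in UTP20. Under high-dose Coptis against the vehicle, 10 of the 15 genes with the hexamer were higher and 2 lower, with a median log2 fold change of 0.44. Of the 16 genes without it, 11 were higher and 3 lower, with a median of 0.37. Scutellaria at its high dose gave 8 higher and 4 lower with the hexamer (median 0.11) and 4 higher and 8 lower without it (median -0.07). Wortmannin lowered 15 of 15 genes with the hexamer and 14 of 16 without it. Of all tested genes, 37.2% were higher and 37.9% lower under Coptis, 30.3% and 28.5% under Scutellaria, and 19.2% lower under wortmannin. With library totals in place of TMM factors, Coptis gave 8 higher and 5 lower with the hexamer and 8 higher and 7 lower without it, and Scutellaria 9 higher and 4 lower with it and 4 higher and 7 lower without it. These splits carry no test.

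Under high-dose Coptis 26 of the 38 members were higher than in the vehicle and 6 lower at an adjusted p under 0.05, and the median log2 fold change of the members was 0.37. The comparison called 37.2% of all tested genes higher and 37.9% lower, with a median over all of them of -0.03. The split depended on the scaling: with library totals in place of TMM factors the median of all tested genes moved to -0.35, that of the members to 0.05, and the members split into 19 higher and 15 lower. Library totals lower the log2 fold changes of this comparison throughout, so the Coptis rises given below with TMM scaling are smaller on that scale. Against the low dose of Coptis, which shares its code set, 26 members were higher and 5 lower (median 0.40), beside 36.9% higher and 38.9% lower of all genes, and 20 higher and 16 lower with library totals. Markers of the astrocytoma list moved in both directions. VIM stood at 8179 CPM under high-dose Coptis and 4236 CPM in the vehicle and CHI3L1 at 1963 and 1305 CPM, whereas SLC1A3 stood at 4.10 and 33.4 CPM, NES at 1.79 and 10.0 CPM and SOX9 at 59.7 and 70.6 CPM. CD44 was at 2787 and 2781 CPM, and PTPRC of the immune list at 6.40 and 13.4 CPM. The part of these marker changes in the members' result was not tested.

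The RNA polymerase I genes included rises and falls under Coptis. POLR1A, the largest subunit of RNA polymerase I (GRCh38 chromosome 2, 86020216 to 86106155, minus strand), held 118, 118 and 114 CPM in the vehicle and 58.7, 61.4 and 62.7 CPM under high-dose Coptis. POLR1B, the second-largest subunit, held 27.0, 28.3 and 25.9 CPM in the vehicle and 42.5, 41.9 and 41.1 CPM under high-dose Coptis. These 2 partners of the same enzyme thus lay on opposite sides of the vehicle, without overlap in either case. POLR1A fell by a log2 of 0.94 ± 0.04 (SE; log2 fold change -0.94, adjusted p = 6.8e-28) and POLR1B rose by 0.63 ± 0.04 (adjusted p = 2.7e-19). UBTF, which opens ribosomal DNA for transcription (chromosome 17, 44205033 to 44221626, minus strand), held 89.0, 85.9 and 88.4 CPM in the vehicle and 48.0, 51.2 and 48.3 CPM under high-dose Coptis, a log2 fold change of -0.84 ± 0.04 (adjusted p = 1.1e-24). RRN3, which recruits the polymerase to its promoter, rose by 0.67 ± 0.03 (adjusted p = 8.3e-27). TCOF1, a nucleolar phosphoprotein of ribosomal DNA transcription, rose by 0.45 and MYBBP1A, a nucleolar MYB-binding protein, by 0.14, which became -0.18 with library totals. In all, with TMM scaling, 4 of the 6 genes of this role rose and 2 fell, beside the 37.2% higher and 37.9% lower of all tested genes, so that the falling share was near that of all genes.

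Nucleolar scaffold genes mostly rose under Coptis with TMM scaling. NPM1 (chromosome 5, 171387116 to 171411137, plus strand) held 1129, 1119 and 1164 CPM in the vehicle and 1783, 1957 and 1814 CPM under high-dose Coptis, with no overlap (log2 fold change 0.70 ± 0.03, adjusted p = 1.9e-26). NCL, which binds nascent ribosomal RNA, held 431, 430 and 433 CPM in the vehicle and 560, 576 and 551 CPM under high-dose Coptis (0.38 ± 0.03, adjusted p = 2.1e-15). GNL3 rose by 0.59, and NOLC1 by 0.17, which became -0.15 with library totals. LYAR, a nucleolar zinc-finger protein, fell by 0.17 (log2 fold change -0.17), so that 4 of the 5 genes of this role rose with TMM scaling, beside the 37.2% higher and 37.9% lower of all tested genes. Against the low dose LYAR did not pass the test (adjusted p = 0.27).

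Among the snoRNP proteins the box C/D core did not move as a unit. FBL, the methyltransferase of that particle, rose by 0.36 ± 0.04 with TMM scaling (adjusted p = 5.2e-11), a rise that is smaller with library totals. Its scaffold partners were lower, NOP58 with a log2 fold change of -0.36 ± 0.04 (adjusted p = 2.9e-10) and NOP56 with -0.31. NOP58 held 56.4, 58.4 and 57.5 CPM at the low dose of Coptis and 48.8, 44.8 and 43.0 CPM at the high dose. The 2 groups did not overlap. RRP9 held 39.1, 38.8 and 39.0 CPM in the vehicle and 70.6, 73.1 and 71.2 CPM under high-dose Coptis, the largest rise of this role (0.88 ± 0.04, adjusted p = 2.8e-25). In the box H/ACA particle, which pseudouridylates ribosomal RNA, NHP2 rose by 0.48, GAR1 did not pass the test (0.15, adjusted p = 0.088), and DKC1, its catalytic subunit, rose by 0.08 ± 0.03 (adjusted p = 0.023) but stood at -0.23 with library totals.

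Small-subunit factors rose in 7 of 9 cases under Coptis with TMM scaling, beside the 37.2% higher and 37.9% lower of all tested genes. DDX21 (chromosome 10, 68956128 to 68985073, plus strand) held 285, 275 and 277 CPM in the vehicle and 506, 527 and 497 CPM under high-dose Coptis, a log2 fold change of 0.87 ± 0.03 (adjusted p = 3.8e-34). WDR43 rose by 0.64, BYSL by 0.61, WDR75 by 0.46, UTP4 by 0.44, UTP15 by 0.41 and RRP12 by 0.28, of which RRP12 stood at -0.04 with library totals. UTP20 (chromosome 12, 101280109 to 101386616, plus strand) was the exception that fell. It held 97.1, 95.5 and 93.3 CPM in the vehicle, 85.3, 84.1 and 78.8 CPM at the medium dose and 46.8, 45.3 and 46.9 CPM at the high dose, a log2 fold change of -1.04 ± 0.04 (adjusted p = 6.7e-30). Vehicle, medium and high dose did not overlap. NOP14 did not pass the test (0.02).

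Of the 10 large-subunit factors 6 rose under Coptis with TMM scaling and the other 4 did not pass the test, beside the 37.2% higher and 37.9% lower of all tested genes. PPAN rose by 0.74 ± 0.06 (adjusted p = 3.3e-17), BOP1 by 0.58, PES1 by 0.53, NOP2 by 0.50, NOP16 by 0.35 and WDR12 by 0.10. BOP1, PES1 and WDR12 form the PeBoW complex that processes large-subunit precursor RNA, and all 3 of its members rose, though WDR12 stood at -0.21 with library totals. The values of those 4 were 0.10 for RRS1, 0.05 for LAS1L, 0.04 for NOC3L and -0.07 for GRWD1.

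The medium dose of Coptis gave a mixed picture: 14 members were higher and 7 lower than in the vehicle, beside 21% higher and 20.2% lower of all tested genes, and the median of the members was 0.04. With library totals the split turned to 2 higher and 19 lower, while the median of all genes moved to -0.13. Leaving out vehicle replicate 2 reduced the 21 called members to 13. After MYC, the largest changes included DDX21 (0.21 ± 0.03, adjusted p = 5.1e-09), RRP9 (0.21 ± 0.04), WDR12 (0.19 ± 0.04), UTP20 (-0.20 ± 0.04, adjusted p = 6.4e-06), GRWD1 (-0.20 ± 0.04), UTP4 (-0.15 ± 0.03) and UBTF (-0.15 ± 0.04). POLR1B was already higher (0.18 ± 0.04, adjusted p = 7.4e-04), and POLR1A, at 109, 114 and 110 CPM, lay below the vehicle libraries without passing the test (-0.07, adjusted p = 0.11).

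High-dose Scutellaria, which raised MYC, divided the other members. Against the vehicle 16 members were higher and 15 lower, beside 30.3% higher and 28.5% lower of all tested genes, and the median was 0.05. Against the low dose of Scutellaria there were 15 in each direction, beside 29.2% higher and 28.9% lower, with a median of 0.00. UBTF held 60.7, 62.6 and 56.5 CPM under the high dose, below the vehicle libraries (-0.55 ± 0.04, adjusted p = 1.1e-17). BOP1 held 68.1, 64.4 and 67.1 CPM under the high dose against 87.7, 91.2 and 92.3 CPM in the vehicle, again with no overlap (-0.44 ± 0.04, adjusted p = 5.5e-13). UTP20 (-0.33 ± 0.04), NOP56 (-0.29 ± 0.04), FBL (-0.22 ± 0.04) and NPM1 (-0.20 ± 0.03, adjusted p = 4.1e-07) also fell. WDR43, a small-subunit factor, held 68.3, 73.0 and 71.7 CPM in the vehicle and 93.6, 94.6 and 97.0 CPM under the high dose (0.42 ± 0.03, adjusted p = 1.8e-16). GAR1 (0.41 ± 0.08), POLR1B (0.35 ± 0.04, adjusted p = 3.1e-10) and RRN3 (0.22 ± 0.03) rose as well. By role, 5 of 9 small-subunit factors rose and 2 fell, and 4 of 10 large-subunit factors rose and 4 fell. The summed epithelial markers stood at 82.0 CPM under high-dose Scutellaria and 237 CPM in the vehicle, KRT18 making up most of both, and their part in the result was not tested.

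The medium dose of Scutellaria lowered 3 members against the vehicle, and the other 35 did not pass the test, beside 4.72% lower and 3.72% higher of all tested genes. They were UTP20 (-0.13 ± 0.04, adjusted p = 0.017), GNL3 (-0.12 ± 0.03) and UTP4 (-0.12 ± 0.03). A count this small rested on single libraries, since 1 member was called without Scutellaria medium-dose replicate 3 or without vehicle replicate 1.

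Set directly against each other at their high doses, Coptis and Scutellaria differed in 31 of the 38 members. Under Coptis 25 were higher and 6 lower than under Scutellaria, beside 35.5% higher and 37.6% lower of all tested genes, with a median of 0.26 for the members and -0.04 for all genes. With library totals 13 were higher and 18 lower. The doses were 20 and 410 µg/mL, and the 2 extracts have different code sets. BOP1 held 134, 139 and 133 CPM under Coptis and 68.1, 64.4 and 67.1 CPM under Scutellaria, a difference of 1.02 ± 0.04 on the log2 scale (adjusted p = 2.9e-28). NPM1 held 1014, 985 and 973 CPM under Scutellaria, below every Coptis library (0.90 ± 0.03, adjusted p = 6.0e-31). RRP9 (0.79 ± 0.04), UTP4 (0.72 ± 0.03), FBL (0.58 ± 0.04) and NCL (0.54 ± 0.03) were also higher under Coptis. POLR1A (-0.80 ± 0.04, adjusted p = 8.5e-25), UTP20 (-0.71 ± 0.04) and NOP58 (-0.49 ± 0.04) were lower. MYC differed by 0.08 ± 0.04 and did not pass the test (adjusted p = 0.12), although with library totals it stood at -0.26. NOP56, NOP14 and LYAR differed by -0.02, -0.02 and 0.03.

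The change from low to high dose within each extract, which leaves out the vehicle, was compared between Coptis and Scutellaria in the same fit. The dose response of 25 members was higher and of 6 lower under Coptis, beside 31.2% higher and 33% lower of all tested genes, and the median difference was 0.28. With library totals the split was 12 higher and 16 lower. BOP1 differed most (1.01 ± 0.06, adjusted p = 3.3e-21), rising from between 91.6 and 97.8 CPM to between 133 and 139 CPM under Coptis and falling from between 90.2 and 97.0 CPM to between 64.4 and 68.1 CPM under Scutellaria. NPM1 (0.91 ± 0.05, adjusted p = 4.0e-24), RRP9 (0.89 ± 0.06) and UTP4 (0.76 ± 0.04) followed. POLR1A (-0.82 ± 0.05, adjusted p = 2.7e-19), UTP20 (-0.73 ± 0.05) and NOP58 (-0.50 ± 0.06) differed in the other direction. The difference for MYC was 0.10 ± 0.07 (adjusted p = 0.20).

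**Figure D3:**
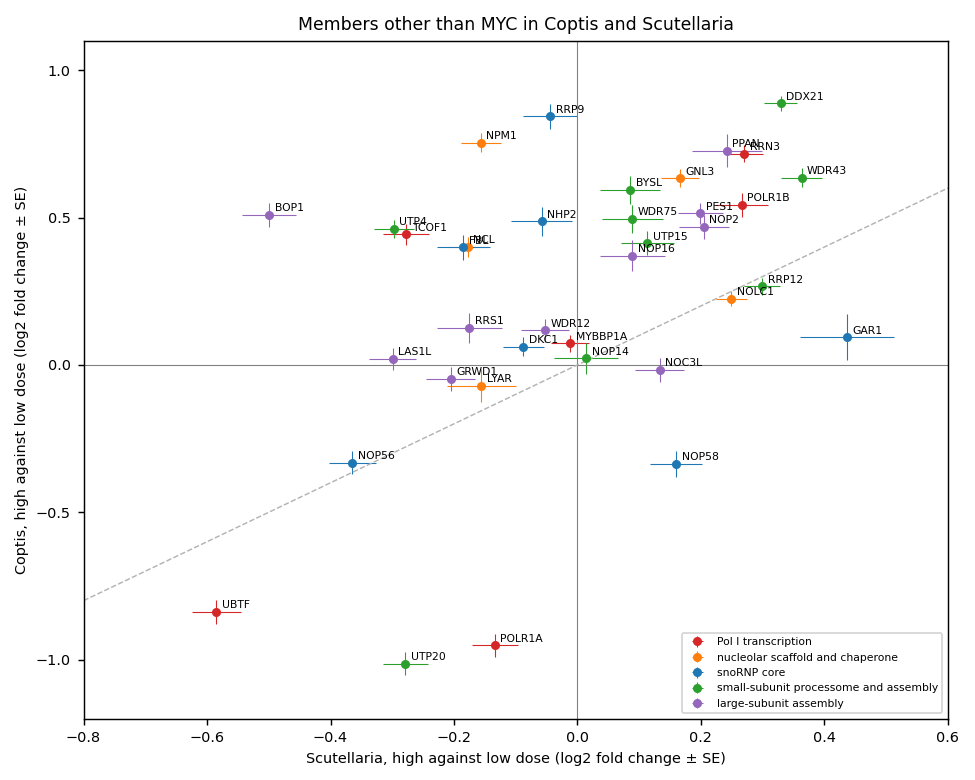
Log2 fold change from low to high dose of Scutellaria (horizontal axis) and Coptis (vertical axis) for the 37 members other than MYC, with SE bars and colour by role; the dashed line marks equal change. BOP1, NPM1 and UTP4 lie far above the line, POLR1A, UTP20 and NOP58 far below it.

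Wortmannin lowered nearly the whole set by small amounts. Of the 38 members 35 were lower and 1 higher than in the vehicle, beside 19.2% lower and 17.3% higher of all tested genes, with a median log2 fold change of -0.26 for the members and 0.02 for all genes. In 34 members every wortmannin library lay below every vehicle library, a condition for which no share of all tested genes is given here. All 5 scaffold genes, 7 snoRNP proteins, 9 small-subunit and 10 large-subunit factors fell, as did 4 of the 6 genes of RNA polymerase I transcription. LYAR fell most, from 16.9, 16.3 and 16.8 CPM to 9.37, 9.67 and 10.1 CPM (-0.77 ± 0.06, adjusted p = 1.8e-15). TCOF1 went from 109, 112 and 111 CPM to 80.5, 82.3 and 83.6 CPM (-0.43 ± 0.04, adjusted p = 1.2e-13), and NPM1 to 864, 859 and 845 CPM (-0.41 ± 0.03, adjusted p = 2.5e-15). These groups were fully apart. BOP1 (-0.39 ± 0.04), DKC1 (-0.36 ± 0.03), DDX21 (-0.36), NCL (-0.24 ± 0.03) and FBL (-0.23 ± 0.04) fell too. The gene that rose was UBTF, from between 85.9 and 89.0 CPM to 96.1, 99.1 and 93.9 CPM (0.14 ± 0.04, adjusted p = 0.0039). POLR1A was lower by a small margin (-0.13 ± 0.04, adjusted p = 0.0029), POLR1B overlapped the vehicle (-0.03 ± 0.04, adjusted p = 0.60), and MYC, as given above, did not pass the test. Wortmannin was used at a single dose, so no comparison between its doses could be made, and whether it shares a code set with the vehicle is not stated.

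Fresh ginger at its high dose lowered 21 members against the vehicle, and the other 17 did not pass the test, beside 10.2% lower and 9.12% higher of all tested genes, with a median of -0.12. Against its own low dose, at which 5 members lay above the vehicle as given further on, 27 were lower and 11 did not pass, beside 11.9% lower and 11.4% higher, with a median of -0.17. RRS1, a large-subunit factor, held 51.8, 46.5 and 49.4 CPM at the low dose and 38.4, 35.2 and 39.1 CPM at the high dose (-0.39 ± 0.05, adjusted p = 6.5e-08). NOP56 held 163, 150 and 161 CPM at the low dose and 122, 134 and 126 CPM at the high dose (-0.31 ± 0.04, adjusted p = 4.4e-09). Neither gene overlapped between doses. NOP16 (-0.31 ± 0.05), BOP1 (-0.30 ± 0.04), NPM1 (-0.24 ± 0.03), NCL (-0.23 ± 0.03) and DKC1 (-0.19 ± 0.03) fell between the doses, whereas POLR1B (-0.04), RRN3 (0.01) and MYC (0.03) did not pass the test. Against the vehicle, RRS1 (-0.27 ± 0.05), UTP20 (-0.26 ± 0.04), LYAR (-0.22 ± 0.06) and GRWD1 (-0.22 ± 0.04) fell most.

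Dried ginger at its high dose lowered 16 members against the vehicle, and the other 22 did not pass the test, beside 9.2% lower and 7.76% higher of all tested genes (median -0.10). The count fell to 10 with library totals and to 9 without dried ginger high-dose replicate 3. UTP20 (-0.25 ± 0.04, adjusted p = 5.7e-07), RRS1 (-0.19 ± 0.05), NOP56 (-0.18 ± 0.04) and NPM1 (-0.18 ± 0.03) were among those that fell. Against the low dose 17 fell and 2 rose, beside 7.13% lower and 6.07% higher, WDR12 (0.14 ± 0.04) and GNL3 (0.09 ± 0.03) being the risers. Without dried ginger high-dose replicate 3 this comparison called 12 members in place of 19. Between dried and fresh ginger at 500 µg/mL no member was called by edgeR or DESeq2, beside 0.825% lower and 0.598% higher of all tested genes. The differences ran from -0.05 to 0.09 with a median of 0.02, and 2 members, WDR43 and GRWD1, had an unadjusted p under 0.05 (smallest adjusted p = 0.298).

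Pinellia at its high dose raised some members by small amounts. Against the vehicle 9 were higher and the other 29 did not pass the test, beside 9.3% higher and 8.73% lower of all tested genes, with a median of 0.06. NCL held 481, 462 and 489 CPM, above every vehicle library (0.15 ± 0.03, adjusted p = 7.4e-04). NPM1 held 1290, 1196 and 1280 CPM (0.14 ± 0.03, adjusted p = 8.1e-04), and PES1 133, 125 and 135 CPM beside 118, 113 and 121 CPM in the vehicle (0.16 ± 0.04, adjusted p = 9.7e-04). In all 3 genes the groups did not overlap. MYC, at 50.4, 45.7 and 48.8 CPM, was higher by 0.18 ± 0.06 (adjusted p = 0.015), and DKC1 by 0.11 ± 0.03. Without vehicle replicate 2 the 9 calls became 5. Against the low dose of Pinellia 7 were higher and 1 lower, beside 7.65% higher and 6.86% lower, and 3 higher and 1 lower with library totals. DDX21 rose by 0.18 ± 0.03 (adjusted p = 1.0e-06) and POLR1B fell (-0.14 ± 0.04, adjusted p = 0.019). MYC (0.14 ± 0.05, adjusted p = 0.075) and DKC1 (0.08 ± 0.03, adjusted p = 0.095) did not pass the test against the low dose, and overlapped between doses. Leaving out Pinellia high-dose replicate 1 reduced the 8 calls to 3, high-dose replicate 3 or low-dose replicate 2 to 5, and low-dose replicate 3 to 4.

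Jujube at its high dose lowered 10 members against the vehicle and raised 1, beside 9.1% lower and 8.18% higher of all tested genes, with a median of -0.06. Against the low dose 9 were lower and 1 higher, beside 7.85% lower and 7.4% higher, and 4 lower and 2 higher with library totals. RRS1 held 43.5, 45.0 and 46.0 CPM at the low dose and 38.6, 37.1 and 35.6 CPM at the high dose, without overlap (-0.27 ± 0.05, adjusted p = 1.7e-04). NOP56 fell by a similar amount (-0.22 ± 0.04, adjusted p = 2.7e-05), and NOLC1, a nucleolar chaperone of snoRNPs, was the riser (0.12 ± 0.02, adjusted p = 2.0e-04). Leaving out jujube high-dose replicate 1 reduced the 10 calls to 6 and low-dose replicate 2 to 5.

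**Figure D4:**
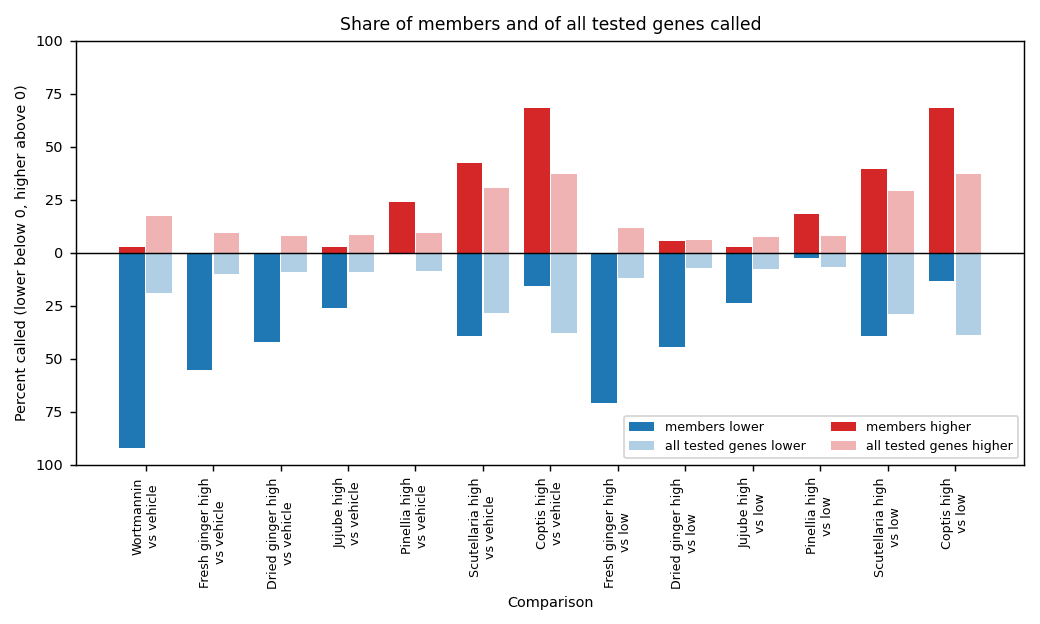
Percent of the 38 members (solid bars) and of all 17569 tested genes (pale bars) called lower, drawn below 0, or higher, drawn above 0, in each comparison of wortmannin or a high dose with the vehicle and of a high with a low dose. The members' bars exceed the pale ones for wortmannin, both gingers and jujube (lower) and for Coptis and Pinellia (higher), and lie near or above them for Scutellaria in both directions.

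In the other 10 groups of low and medium doses, the medians of the members' log2 fold changes against the vehicle lay between -0.04 and 0.05. The lowest median belonged to medium-dose jujube (-0.04) and the highest to low-dose fresh ginger (0.05). Individual members ranged from -0.16, under low-dose dried ginger, to 0.15, under low-dose fresh ginger. Low-dose Coptis (median 0.00, range -0.09 to 0.08) and low-dose Scutellaria (median 0.02, range -0.05 to 0.13) thus lay close to the vehicle. Among these 10 groups only low-dose fresh ginger had called members. At that dose 5 members were higher than in the vehicle at an adjusted p under 0.05, beside 3.56% higher and 4.38% lower of all tested genes. They were PES1 (0.15 ± 0.04, adjusted p = 0.0062), RRP9 (0.15 ± 0.04), NOP58 (0.14 ± 0.04), NCL (0.13 ± 0.03) and NOP56 (0.11 ± 0.04). DESeq2 called 2 members, and leaving out low-dose replicate 1, low-dose replicate 3 or any vehicle replicate left 1 to 3. Log2 levels relative to each gene's mean fell with log10 exon length at low-dose fresh ginger, with a mean slope of -0.11. The slope was 0.048 in the vehicle, and its part in these calls was not tested.

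Other genes of the pathway, taken from lists that hold no member, were counted in the same fit, with TMM scaling unless stated. Under wortmannin 19.2% of all tested genes were lower and 17.3% higher. Of the lists, 24 of 38 further small-subunit processome genes fell and 2 rose (median -0.18), and 32 of 48 large-subunit assembly factors fell and 1 rose (median -0.18). Examples were EBNA1BP2 (-0.56 ± 0.05) and MRTO4 (-0.47 ± 0.04), both large-subunit factors, and NOL11 (-0.34 ± 0.03), a small-subunit factor. Of 16 further subunits and factors of RNA polymerase I, 6 fell under wortmannin and 10 did not pass the test, with POLR1E at -0.57 ± 0.05, and 4 fell with library totals. Among 12 further snoRNP core and assembly genes 3 fell, among them the assembly helicases RUVBL1 (-0.37 ± 0.04) and RUVBL2 (-0.33 ± 0.04), a share not far from that of all genes. Of 13 nuclear exosome genes 6 fell, with EXOSC2 at -0.31 ± 0.05.

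Coptis at its high dose raised 37 of the 48 large-subunit factors and lowered 5 (median 0.36), beside 37.2% higher and 37.9% lower of all tested genes. RSL24D1 (1.24 ± 0.04) and GNL2 (0.89 ± 0.03) were among them. It raised 23 of the 38 small-subunit genes and lowered 9 (median 0.22), with RCL1 at 1.55 ± 0.05 and NOB1 at 1.25 ± 0.04. The RNA polymerase I list divided, 8 rising and 6 falling of 16, the falling share being close to that of all genes, with TAF1D (1.55 ± 0.04) and POLR1D (1.06 ± 0.04) among the risers. Of the snoRNP list 9 rose and 3 fell, SHQ1, an assembly chaperone of H/ACA particles, with -0.83 ± 0.05, and 7 of 13 exosome genes rose and 4 fell. These splits depended on the scaling: with library totals, where 22.9% of all genes were higher and 54.3% lower, the large-subunit list stood at 20 higher and 15 lower, the small-subunit list at 11 higher and 20 lower, the RNA polymerase I list at 7 higher and 8 lower, the snoRNP list at 2 higher and 6 lower and the exosome list at 6 higher and 5 lower.

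High-dose Scutellaria raised 20 large-subunit factors and lowered 10 (median 0.05), raised 13 small-subunit genes and lowered 6 (median 0.04), and raised 3 and lowered 8 of the RNA polymerase I list, beside 30.3% higher and 28.5% lower of all tested genes. The small-subunit share that rose was close to that of all genes. Of the snoRNP list 6 rose and 4 fell, and of the exosome list 3 rose and 6 fell. UTP25 (1.01 ± 0.05) and RSL24D1 (0.76 ± 0.04) rose, and POLR1E (-0.56 ± 0.05) and FTSJ3 (-0.47 ± 0.04) fell.

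**Figure D5:**
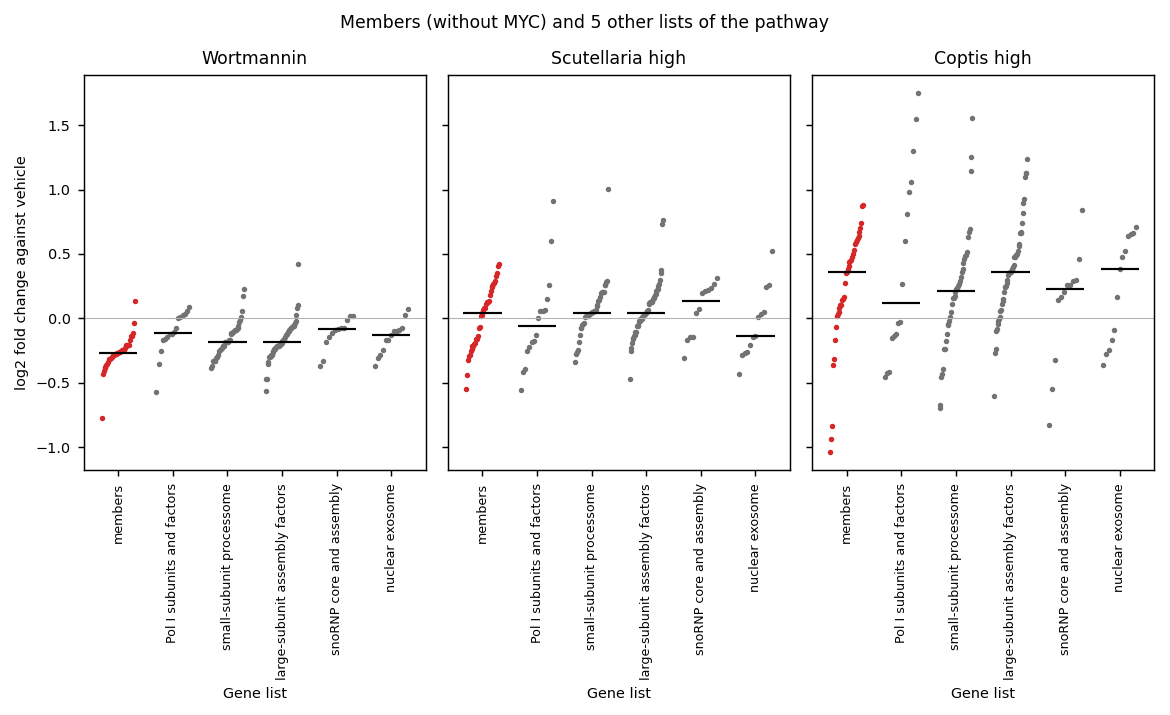
Log2 fold change against the vehicle of the 37 members other than MYC (red) and of 5 other gene lists of the pathway (grey), 1 point per gene and a black line at each median, under wortmannin, high-dose Scutellaria and high-dose Coptis. Most points lie below 0 under wortmannin and above 0 under Coptis with TMM scaling, where a few genes fall by 0.8 or more, and are spread about 0 under Scutellaria.

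Partners and opponents of MYC in its own transcription factor network were counted in the same comparisons, with the shares of all genes given above. Of 9 such genes 6 rose and 2 fell under high-dose Coptis, 6 rose and 2 fell under high-dose Scutellaria, and 6 rose and 3 did not pass the test under wortmannin. With library totals the counts were 5 higher and 3 lower under Coptis and the same as before under the other 2 treatments. MXD1, a repressor that competes with MYC for MAX, changed by 2.48 ± 0.06 under Coptis (adjusted p = 1.9e-39), by 2.03 ± 0.06 under Scutellaria (adjusted p = 1.2e-34) and by 0.26 ± 0.07 under wortmannin (adjusted p = 0.0033). MXI1, of the same family, changed by 1.87 ± 0.06, 0.53 ± 0.07 and 0.77 ± 0.07, and MNT, another MAX-binding repressor, by 1.25 ± 0.05, 0.64 ± 0.05 and 0.23 ± 0.05, in that order. MXD1, MXI1 and MNT were single genes fixed by name, and the genes that fell under Coptis or Scutellaria are not among them.

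Unassembled ribosomal proteins RPL5 and RPL11 are known to bind MDM2, which otherwise degrades p53. Under high-dose Coptis RPL5 rose by 0.62 ± 0.04 (adjusted p = 7.1e-20) and RPL11 by 0.54 ± 0.06 (adjusted p = 2.3e-11). Under high-dose Scutellaria both were lower, at -0.12 ± 0.04 (adjusted p = 0.0080) and -0.20 ± 0.06 (adjusted p = 0.0041). CDKN1A, a target of p53, rose under both, by 1.52 ± 0.05 (adjusted p = 2.9e-32) and 1.69 ± 0.05 (adjusted p = 2.9e-34), and so did MDM2, also a p53 target, by 0.83 ± 0.04 and 0.47 ± 0.04. Under wortmannin CDKN1A rose by 0.37 ± 0.06 (adjusted p = 2.8e-07), MDM2 fell (-0.15 ± 0.04, adjusted p = 0.0056), and RPL5 (-0.08) and RPL11 (-0.15) did not pass the test. These are mRNA levels with TMM scaling and give no measure of unassembled protein. The rises under Coptis are smaller with library totals. Of all tested genes, 37.2% were higher under Coptis, and 30.3% were higher and 28.5% lower under Scutellaria. Each comparison shares the same 3 vehicle libraries.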

How the data were processed

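RNA of SW1783 cells was sequenced, per the labels' protocols, as directional libraries in 100 bp read pairs on an MGI system. Per the submitters' processing notes FastQC 0.11.9, Trim Galore 0.6.5, STAR 2.7.3a, RSEM 1.3.3 and GRCh38 were used, with settings that the notes do not list. RSEM expected counts per Ensembl gene were deposited, not scaled for depth by the authors. They were rounded to whole counts, which changed a library total by at most 0.00022%. Gene symbols and coordinates came from a table of gene names and GENCODE v29, promoter windows from RefSeq.

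The test was edgeR 4.0.16's quasi-likelihood F test in R 4.3.3. filterByExpr kept 17569 of 37383 genes with any count, libraries were scaled by TMM, and a quasi-likelihood model with 1 mean per group was fitted to all 60 libraries (40 residual degrees of freedom, biological coefficient of variation 3.24%). The 18 main comparisons were tested two-sided, with Benjamini-Hochberg adjustment over 17569 genes and calls at an adjusted p under 0.05. Fold changes carry the SE of the fit, levels the SD over 3 libraries. No 2 libraries of a group agreed within sampling noise (chi-square per gene 1.61 to 5.95). In 0 comparisons did every pair of same-numbered replicates correlate above 0.1, the level set for treating them as pairs.

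Alternatives were DESeq2 1.42.0, its size factors, library totals, no filter, a replicate block, exon-length trends, only the groups compared and leaving out each replicate; leaving out the 37 mitochondrially encoded genes and the library totals for the other lists and the promoter split, and the alternatives for low-dose fresh ginger (exon-length trends not run), were added after seeing the data. The statistics were tested on simulated data. The members and gene lists were chosen with earlier results of these data known. Text names MYC, NCL, NPM1, FBL, DKC1, POLR1A, POLR1B, RRN3 and UBTF, the 4 called members with the largest rises and falls and no overlap, up to 3 called genes per other list by p, and 7 single genes; other members are given by role. Promoters printed are those of the 4 members with the smallest p between Coptis doses that hold CACGTG. No protein sequences were used here.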

Additional observations from a re-analysis of the deposited data

Results flagged for a closer look

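The change from low to high dose differed between Coptis and Scutellaria, by a test of that difference in edgeR's quasi-likelihood fit with Benjamini-Hochberg adjustment, in 31 members. Of these 25 were higher and 6 lower under Coptis, beside 31.2% higher and 33% lower of all tested genes, and with library totals 12 were higher and 16 lower. Among the members named by rule the difference (Coptis minus Scutellaria, log2) was positive for BOP1 (1.01), NPM1 (0.91), RRP9 (0.89), UTP4 (0.76), FBL (0.58), NCL (0.58), RRN3 (0.45), POLR1B (0.28) and DKC1 (0.15). It was negative for POLR1A (-0.82), UTP20 (-0.73), NOP58 (-0.50), GAR1 (-0.34) and UBTF (-0.25). The values for POLR1B and DKC1 turned negative with library totals. GAR1 held 21.1, 17.1 and 17.4 CPM at the low dose of Scutellaria and 27.7, 22.9 and 24.4 CPM at the high dose, without overlap.

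Among the members named by the rule in both of the comparisons set side by side, 6 had every library of the high dose on the upper side of the low dose under some extract and on the lower side under another; other members not named in both, RRS1 and BOP1 among them, also met this condition. These differences between extracts were not tested, and no share of all tested genes that meet the condition is given. NPM1 was at 0.75 under Coptis and at -0.24, -0.12 and -0.12 under fresh ginger, dried ginger and jujube. NCL was at 0.40 under Coptis and 0.11 under Pinellia, and at -0.23 under fresh ginger, -0.18 under Scutellaria, -0.070 under dried ginger and -0.057 under jujube, of which the last 2 did not pass the test. POLR1B was at 0.54 under Coptis and 0.27 under Scutellaria, and at -0.14 under Pinellia and -0.059 under jujube, where it did not pass the test. FBL stood at 0.40 under Coptis and -0.12 under fresh ginger. RRP9 stood at 0.84 under Coptis and -0.12 under jujube. DKC1 stood at 0.061 under Coptis, where it did not pass the test, and at -0.19 under fresh ginger and -0.072 under dried ginger, where it did not pass either.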

How the results depend on the processing

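Counts of called members for wortmannin (36), fresh ginger against the vehicle (21) and its low dose (27), Scutellaria at the high dose against the vehicle (31) and the low dose (30), Coptis at the high dose against the vehicle (32) and the low dose (31), and Coptis against Scutellaria (31, and 31 for their dose responses) stayed within 1.5 times of these values under every alternative tried, though library totals changed the directions of the Coptis comparisons as given in the report. The smaller counts were less steady. The 16 of high-dose dried ginger against the vehicle became 10 with library totals and 10 with only the groups compared, and 9 to 19 when a replicate was left out. The 9 of high-dose Pinellia against the vehicle became 5 with only its own groups and 5 to 11 without a replicate. The 3 of medium-dose Scutellaria became 6 with only its own groups and 1 to 3 without a replicate, and the 21 of medium-dose Coptis 13 to 19 without a replicate. Between high and low dose, the 19 of dried ginger became 12 to 18 without a replicate. The 8 of Pinellia became 4 with library totals, 3 without the filter on low counts, 5 with DESeq2, 1 with only its own groups and 3 to 6 without a replicate. The 10 of jujube became 6 with library totals, 6 without the filter and 5 to 10 without a replicate. The 5 of low-dose fresh ginger became 2 with DESeq2, 3 with only its own groups and 1 to 6 without a replicate. The cause of these shifts was not tested.

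Direction reversed for 10 of the values of members named by the rule, all with library totals: DKC1 at -0.23 (Coptis high dose against vehicle), -0.24 (against low dose), -0.17 (against Scutellaria) and -0.17 (dose responses), MYC at -0.26 and -0.21 and POLR1B at -0.058 and -0.039 in the last 2 of these, and NPM1 at -0.087 and RRN3 at -0.12 under medium-dose Coptis. In high-dose Coptis against the vehicle MYBBP1A (-0.18), NOLC1 (-0.15), RRP12 (-0.040) and WDR12 (-0.21), described by role, turned as well, and so did the split of the small-subunit and snoRNP lists. Of the other alternatives for named members, 3029 kept direction and side of the threshold, 131 fell short of it and 31 newly passed it. The replicate numbers did not meet the level set for pairing, although the closest match of 32 among the 60 libraries had the same number, beside 20 on average for numbers that carry no information. A replicate block left 36 calls for wortmannin and 32 for high-dose Coptis, and gave 17 for high-dose dried ginger against the vehicle and 20 against its low dose. Without the mitochondrially encoded genes the splits under the high doses of Coptis and Scutellaria were unchanged in number, 26 higher and 6 lower and 16 higher and 15 lower against the vehicle. The lowest vehicle level of a member was 16.7 CPM (LYAR). Errors were wider at low levels: under high-dose Coptis against the vehicle the SE was 0.08 for GAR1 and 0.02 for NOLC1 on the log2 scale.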
